A study of Mus musculus with 26 samples.

Results

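The genes described here are 8 markers by which macrophages are commonly recognised, Mpeg1, Cd68, Cd86, Cd80, Cd14, Lyz2, Lgals3 and Mertk, followed through 24 RNA libraries of transformed mouse myeloid progenitors. They were chosen by name, as 8 of the 48795 genes in the count table, with earlier results of these data known. Counts of members called, set beside the share over all genes, are therefore a description and not a test of the set. Of the 8, 7 had enough reads to be tested and Mertk did not.

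Macrophages arise from myeloid progenitors through monocytes, under the transcription factors PU.1 and IRF8 and the growth factor receptor CSF1R. The markers stand for different functions of the mature cell. Mpeg1 encodes perforin-2, a pore-forming protein of the phagosome, Cd68 a heavily glycosylated protein of lysosomal membranes, and Lyz2 the lysozyme that cleaves bacterial cell walls. The Cd80 and Cd86 products are the costimulatory ligands that T cells read through CD28 and CTLA4, CD14 is the co-receptor that hands lipopolysaccharide to TLR4, galectin-3 (Lgals3) is a sugar-binding protein, and MERTK is a receptor tyrosine kinase for apoptotic cells. LSD1, encoded by Kdm1a, removes methyl groups from lysine 4 of histone H3 and is brought to chromatin by the repressors GFI1 and GFI1B. All-trans retinoic acid (ATRA) binds nuclear retinoic acid receptors and is used to push myeloid leukaemia cells towards differentiation.

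The cells were C57BL/6 mouse progenitors transformed either by Hoxa9 with Meis1 (H9M) or by MN1, and grown with interleukin 3, interleukin 6 and stem cell factor. In each model there were controls (CTL), controls with 1 µM ATRA, LSD1 knockouts (KO), and knockouts with 1 µM ATRA, with 3 libraries in each of the 8 groups. The strain field gives CreERT2-;LSD1TM1Schuele for all samples, controls and knockouts alike. 4-hydroxytamoxifen (4-OHT, 0.1 µM for 72 h), the inducer of CreERT2, is listed for the knockouts and not for the controls, so loss of LSD1 and exposure to 4-OHT cannot be told apart. The labels do not give the time in ATRA. They do not say whether the 3 libraries of a group were separate cultures, so p-values measure the spread between these libraries, which may be technical. H9M and MN1 libraries carry different tags in their names (LR-27308 and LR-27309), whose meaning the labels do not give. The model and whatever the tag stands for cannot be told apart where levels of the 2 models are set side by side. H3K4me2, a mark of active and poised promoters that LSD1 can erase, was measured by ChIP-seq in mouse bone marrow depleted of lineage-positive cells, with 1 library labelled GFI1-WT and 1 labelled GFI1-KD. How the GFI1-KD mice were made is not given.

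Library totals ran from 22402558 to 32674685 counts, and values are counts scaled to a library total of 1000000 (CPM). Kdm1a lay between 138 and 203 CPM in the 12 control libraries. It was 0.693% of its control in H9M KO and 0.747% in MN1 KO without ATRA, and 7.51% and 1.09% with ATRA. The H9M KO libraries with ATRA thus held more Kdm1a RNA than the other knockouts, and results that rest on them were also computed after removing that share of control expression. "Called" means an adjusted p under 0.05 in edgeR's quasi-likelihood test, fitted and Benjamini-Hochberg adjusted over 14663 genes. In bulk RNA, fewer cells of a type and less RNA per cell cannot be told apart.

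The promoters are shown first, because the chromatin data bear on them and because Lyz2 has a near copy, Lyz1. RefSeq windows on GRCm38.p6 existed for 6 of the 8 genes, not for Cd86 and Cd14. The 250 bases before the transcription start are printed 5′ to 3′ on each gene's own strand for Mpeg1 (chr19:12460520-12460769, plus strand), Cd68 (chr11:69666171-69666420, minus strand), Cd80 (chr16:38458683-38458932, plus strand), Lyz2 (chr10:117282273-117282522, minus strand) and Lyz1 (chr10:117292869-117293118, minus strand). The start used for Cd80 lies inside the gene as annotated, which begins at chr16:38457430, so its printed bases do too. Capitals mark matches to 5 motifs searched on both strands.
Mpeg1: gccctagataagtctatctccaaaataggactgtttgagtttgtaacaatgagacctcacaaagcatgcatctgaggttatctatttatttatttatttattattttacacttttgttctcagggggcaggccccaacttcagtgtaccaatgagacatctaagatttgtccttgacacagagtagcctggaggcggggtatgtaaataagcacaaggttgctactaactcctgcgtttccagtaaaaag
Cd68: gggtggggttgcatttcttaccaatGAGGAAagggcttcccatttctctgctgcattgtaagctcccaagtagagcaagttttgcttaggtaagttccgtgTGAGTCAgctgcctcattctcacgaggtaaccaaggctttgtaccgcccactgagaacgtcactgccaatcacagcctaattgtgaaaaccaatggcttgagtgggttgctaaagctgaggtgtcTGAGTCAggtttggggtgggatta
Cd80: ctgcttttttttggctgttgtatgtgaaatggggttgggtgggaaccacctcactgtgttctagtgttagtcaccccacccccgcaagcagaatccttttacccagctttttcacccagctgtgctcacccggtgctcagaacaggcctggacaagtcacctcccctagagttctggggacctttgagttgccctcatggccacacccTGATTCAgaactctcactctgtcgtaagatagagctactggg
Lyz2: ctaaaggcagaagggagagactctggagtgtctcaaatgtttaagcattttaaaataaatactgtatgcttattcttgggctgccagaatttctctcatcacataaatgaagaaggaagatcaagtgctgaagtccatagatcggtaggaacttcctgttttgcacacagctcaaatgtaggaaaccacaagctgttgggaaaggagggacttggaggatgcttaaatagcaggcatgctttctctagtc
Lyz1: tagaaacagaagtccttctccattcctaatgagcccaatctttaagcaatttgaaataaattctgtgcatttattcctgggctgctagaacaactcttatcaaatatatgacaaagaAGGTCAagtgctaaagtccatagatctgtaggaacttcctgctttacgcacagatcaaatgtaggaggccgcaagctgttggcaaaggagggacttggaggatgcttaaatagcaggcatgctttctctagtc
The motifs were the PU.1 core GAGGAA, the GFI1 core AAATCA, the retinoid receptor hexamer AGGTCA, the interferon regulatory factor repeat GAAANNGAAA and the AP-1-like pattern TGANTCA. N stands for any base, so the AP-1-like pattern is looser than a strict AP-1 site. Cd68 held GAGGAA 225 bases before its start and TGAGTCA 149 and 24 bases before it. Cd80 held TGATTCA 42 bases before its start. None of the motifs was found in the same window of Mpeg1, Lyz2, Lgals3 or Mertk. The PU.1 core was present in 1 of the 6 member windows against 23.3% of all 32851 promoter windows, and the AP-1-like pattern in 2 of 6 against 6.75%. The GFI1 core, the retinoid receptor hexamer and the interferon regulatory factor repeat were in 0 of the 6, against 12.4%, 14% and 2.98% of all windows. The matches shown do not overlap, and such short letter strings mark no bound site by themselves. Over the last 100 bases before the start, Lyz2 and Lyz1 were identical at 92, and over all 250 at 152 (60.8%), aligned without gaps. Lyz1 alone held AGGTCA, 133 bases before its start. Because the coding parts of such paralogs can also share reads, the Lyz2 values below carry that uncertainty. The counts assigned to Lyz1 were at most 17 in any group of 3 libraries.

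Without ATRA, loss of LSD1 in H9M cells went with higher RNA of all 7 tested members, beside 26.1% of all genes called higher and 25.4% lower. Cd86 passed the filter on low counts only through its H9M KO libraries, so its entry in every H9M count of knockouts against controls below follows from the filter. The rises ran from 1.79-fold (Cd14) to 12.1-fold (Mpeg1), leaving Cd86 aside. In MN1 cells 6 of the 7 were called higher, beside 28.7% of all genes, and 0 lower, beside 26.3%. Cd86 was not called. Its MN1 groups held at most 2 counts each, too few for a call, yet it stands among the 7 in every MN1 count of members. The plot of CPM by library shows the 8 genes in every group.

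**Figure D1:**
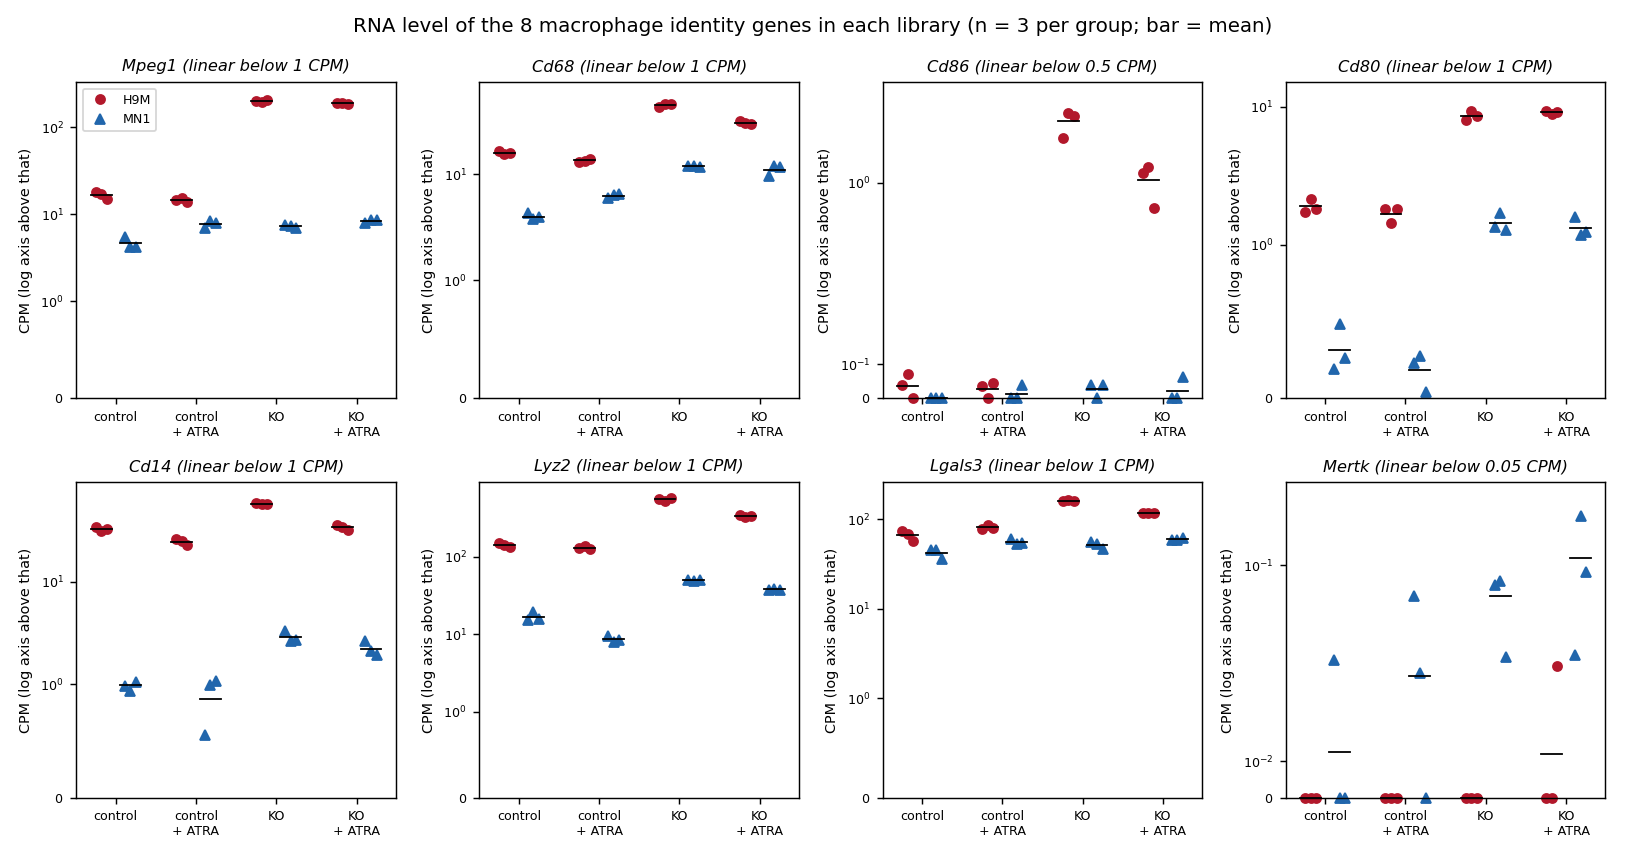
CPM of each member in each library (points, H9M circles and MN1 triangles, bar at the group mean, n = 3) by group, on an axis that is linear below the stated level and logarithmic above it. In H9M the 3 KO libraries of Mpeg1 sit at 195 to 205 CPM against 15.1 to 18.1 in controls, while Mertk stays at or near 0 everywhere.

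Mpeg1 (ENSMUSG00000046805.9, chr19:12460770-12465285) had the largest change of the members with counts in every group. The 3 H9M control libraries had 18.1, 17.1 and 15.1 CPM of Mpeg1 and the 3 KO libraries 202, 195 and 205. The groups lay far apart, with a log2 fold change of 3.60 ± 0.06 (SE, adjusted p = 2.88e-29). MN1 controls had 5.51, 4.2 and 4.19 CPM of Mpeg1 and MN1 KO libraries 7.47, 7.41 and 7.01. These groups did not overlap either, but the rise was 0.66 ± 0.10 (adjusted p = 2.23e-06), so that every MN1 KO library stayed below every H9M control library. The difference between the models in the KO change of Mpeg1 was tested itself and came to -2.93 ± 0.12 on the log2 scale (MN1 minus H9M, adjusted p = 7.12e-18).

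For Cd68 (ENSMUSG00000018774.13, chr11:69664213-69666170), the lysosomal glycoprotein, both models responded by a like amount. H9M controls had 16.8, 15.5 and 15.9 CPM and KO libraries 43.5, 46.2 and 46.1, while MN1 controls had 4.3, 3.78 and 3.93 and KO libraries 12.1, 11.9 and 11.8. No KO library overlapped a control of its own model. The changes of Cd68 were 1.51 ± 0.06 in H9M (adjusted p = 3.17e-19) and 1.58 ± 0.09 in MN1 (adjusted p = 9.16e-16). Their difference of 0.07 ± 0.11 was not called (adjusted p = 0.716), which does not show that they are equal.

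Lyz2 (ENSMUSG00000069516.7, chr10:117277541-117282272), the myeloid lysozyme, read 149, 140 and 133 CPM in H9M controls and 558, 528 and 575 in KO libraries. In MN1 it read 15.4, 19.2 and 15.9 in controls and 49.9, 48.5 and 50.5 in KO libraries. Even after the knockout, MN1 cells held less Lyz2 RNA than H9M controls. The log2 fold changes were 1.99 ± 0.05 in H9M (adjusted p = 1.19e-24) and 1.55 ± 0.06 in MN1 (adjusted p = 4.45e-19), and the difference of -0.44 ± 0.08 was called (adjusted p = 6.7e-05). Lgals3 (ENSMUSG00000050335.16, chr14:47373860-47386167), galectin-3, rose from 73.7, 68.6 and 56.3 to 161, 162 and 161 CPM in H9M (1.30 ± 0.07, adjusted p = 1.05e-15). Its MN1 libraries went from 44.8, 45.3 and 36.1 to 55.6, 52.9 and 46.8 CPM, groups that lay next to each other without overlap (0.30 ± 0.08, adjusted p = 0.00199). The KO change of Lgals3 was thus smaller in MN1, (MN1 minus H9M, -1.0 ± 0.11, adjusted p = 8.66e-09).

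Cd14 (ENSMUSG00000051439.6), the lipopolysaccharide co-receptor, was the member that differed most between the models before any knockout. H9M controls had 34.3, 31.2 and 33.0 CPM and MN1 controls 0.981, 0.937 and 1.05. With the knockout Cd14 reached 59.0, 57.8 and 58.1 CPM in H9M and 3.28, 2.64 and 2.70 in MN1. The rise was 0.84 ± 0.06 in H9M (adjusted p = 9.33e-13) and 1.53 ± 0.18 in MN1 (adjusted p = 1.17e-08), and Cd14 was the only tested member whose KO change was called larger in MN1 (difference 0.69 ± 0.19, adjusted p = 0.0062). For the differences in KO change between the models, 1 of 7 tested members was called higher and 3 lower in MN1, beside 14.2% of all genes in each direction.

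Both costimulatory ligands were higher in H9M knockouts, and in MN1 only Cd80 had enough reads to be measured. Cd80 (ENSMUSG00000075122.4, chr16:38457430-38495958) went from 1.73, 2.13 and 1.81 to 8.03, 9.22 and 8.57 CPM in H9M, a change of 2.20 ± 0.15 (adjusted p = 1.21e-13). In MN1 it went from 0.189, 0.484 and 0.262 to 1.33, 1.68 and 1.27 CPM, a change of 2.15 ± 0.29 (adjusted p = 1.77e-07). No KO library of Cd80 overlapped a control in either model, and the difference in KO change, -0.05 ± 0.49, was not called (adjusted p = 0.981). The SE, derived from the test statistic, is unstable for a change so near 0. Cd86 (ENSMUSG00000022901.13, chr16:36568956-36666158) had 1, 2 and 0 counts in the H9M control libraries and 44, 71 and 75 in the KO libraries, or 1.96, 2.83 and 2.75 CPM. The ratio of KO to control was 67.4, with a 95% counting interval of 22.7 to 330. In MN1, Cd86 had 0 counts over the 3 controls and 2 over the 3 KO libraries, which is under the floor of 3 counts in both, so no fold is given. Cd86 RNA was therefore seen above the floor in H9M knockouts and in no MN1 group.

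Mertk (ENSMUSG00000014361.5, chr2:128698915-128803162), the apoptotic cell receptor, was absent or nearly so. The H9M groups held 0 counts in controls, 0 in controls with ATRA, 0 in KO and 1 in KO with ATRA. A count of 0 over 3 libraries allows up to 0.0377 to 0.0411 CPM in these groups, for counting error only. The MN1 groups held 1, 3, 5 and 9 counts in the same order. The 9 counts of MN1 KO with ATRA against 1 in MN1 controls give a ratio of 9.52 with a 95% counting interval of 1.32 to 417, which is not a replicate test.

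With ATRA present in both arms, the knockout difference remained called for all 7 tested members in H9M, beside 26.7% of genes called higher and 24.4% lower, with Cd86 again counted through the filter. In MN1 it was called for 4 of 7 (Cd68, Cd80, Cd14 and Lyz2), beside 28.6% of genes called higher and 28.6% lower. H9M Mpeg1 stood at 14.5, 15.3 and 13.7 CPM in controls with ATRA and at 189, 189 and 186 in KO with ATRA (3.70 ± 0.06, adjusted p = 4.41e-29). MN1 Mpeg1 stood at 6.87, 8.41 and 7.99 CPM in controls with ATRA and at 7.87, 8.51 and 8.69 in KO with ATRA. The MN1 groups overlapped, and the difference of 0.09 ± 0.09 was not called (adjusted p = 0.396). Lgals3 followed the same course, with 59.6, 53.0 and 54.8 CPM in MN1 controls with ATRA, 58.4, 58.3 and 61.6 in KO with ATRA, and an uncalled difference of 0.07 ± 0.08 (adjusted p = 0.447).

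**Figure D2:**
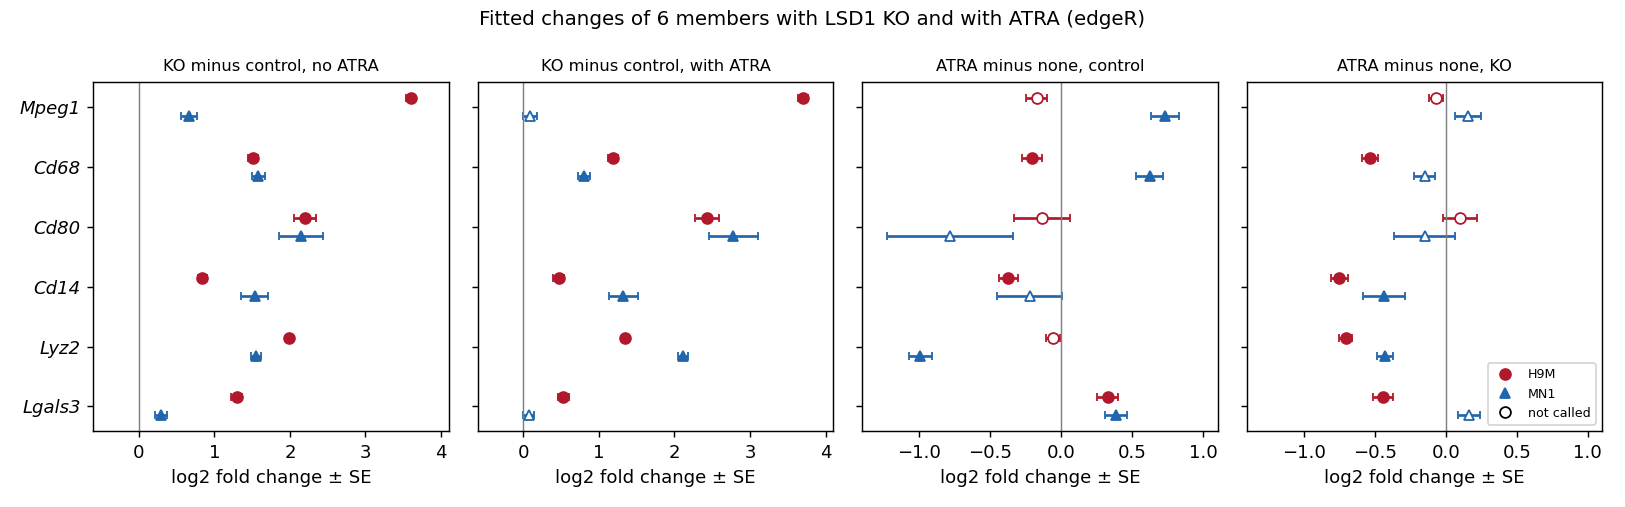
Log2 fold changes (points) from the edgeR fit with SE (bars, derived from its F statistic) for 6 members, H9M as circles and MN1 as triangles, filled where called. The KO panels lie right of 0, up to 3.70 for H9M Mpeg1 with ATRA, and the ATRA panels hold changes on both sides of 0. Cd86 and Mertk are left out for their low counts.

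ATRA alone gave no common direction. In H9M controls 1 of 7 tested members was called higher (Lgals3) and 2 lower (Cd68 and Cd14), beside 12.9% and 12.3% of all genes. In MN1 controls 3 were called higher (Mpeg1, Cd68 and Lgals3) and 1 lower (Lyz2), beside 11.4% and 10.4%. Lgals3 was the member called higher in both models, reaching 78.5, 85.2 and 79.3 CPM in H9M controls with ATRA (0.33 ± 0.07, adjusted p = 0.00123) and rising by 0.39 ± 0.08 in MN1 (adjusted p = 0.000425).

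Cd68 moved in opposite directions in the control cells. MN1 controls with ATRA had 5.92, 6.36 and 6.47 CPM of Cd68, all above the controls without it (0.62 ± 0.10, adjusted p = 1.11e-05). H9M controls with ATRA had 13.1, 13.5 and 14 CPM, all below the controls without it, and Cd68 fell by 0.21 (SE 0.07, adjusted p = 0.028). The H9M call is weak: over 13 alternatives its adjusted p ran from 0.00853 to 0.121. It was lost under DESeq2 (0.0581), with no filter on low counts (0.0545) and without the H9M control replicate 1 (0.121) or the H9M control with ATRA replicate 1 (0.103) or replicate 2 (0.0595). The difference between the models in the ATRA change of Cd68, 0.83 ± 0.12, was called (adjusted p = 6.48e-06), as it was for Mpeg1 (0.90 ± 0.12, adjusted p = 3.44e-06). In that comparison 2 of 7 members were called higher in MN1 and 1 lower, beside 6.64% and 7.15% of genes. Mpeg1 in H9M controls, 0.17 lower on the log2 scale, was not called (adjusted p = 0.0865; 0.0194 to 0.358 over 13 alternatives). It was called with scaling to library totals alone (0.0297) and without the H9M control replicate 3 (0.0194).

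Lyz2 was also called lower with ATRA in MN1 controls and Cd14 in H9M controls. MN1 controls with ATRA had 9.36, 7.97 and 8.49 CPM of Lyz2, about 1.99-fold below the controls without it (-0.99 ± 0.08, adjusted p = 3.51e-11). H9M controls with ATRA had 130, 136 and 128 CPM of Lyz2, overlapping the controls without it (-0.06 ± 0.05, adjusted p = 0.415). The ATRA change of Lyz2 differed between the models by -0.93 ± 0.09 (adjusted p = 9.64e-09). Cd14 had 26.0, 25.1 and 22.9 CPM in H9M controls with ATRA and fell by 0.37 (SE 0.07, adjusted p = 8.39e-05). Its MN1 controls with ATRA, at 0.556, 0.992 and 1.07 CPM, overlapped those without (-0.22 ± 0.23, adjusted p = 0.548). The difference between the models in the ATRA change of Cd14, 0.15 ± 0.24, was not called (adjusted p = 0.775).

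Within the knockouts, ATRA was followed by lower RNA of 5 of the 7 tested members in H9M, beside 15.4% of genes called lower, and by higher RNA of none, beside 13.9%. H9M KO with ATRA had 348, 322 and 334 CPM of Lyz2, all below the KO without ATRA (-0.70 ± 0.05, adjusted p = 2.4e-13). Cd14 stood at 35.9, 34.6 and 32.1 CPM (-0.75 ± 0.06, adjusted p = 4.41e-11). Cd14 there was not called different from the controls without ATRA (0.09 ± 0.06, adjusted p = 0.223), which does not show that they are equal. Against the controls with ATRA it was still called higher (0.47 ± 0.07, adjusted p = 7.78e-07). Cd68 stood at 32.1, 30.5 and 29.8 CPM (-0.53 ± 0.06, adjusted p = 8.28e-09) and Lgals3 at 117, 117 and 116 (-0.44 ± 0.07, adjusted p = 8.89e-06). For Cd86 the counts were 26, 32 and 19, or 1.15, 1.27 and 0.684 CPM, and the ratio to KO without ATRA was 0.401 (95% counting interval 0.304 to 0.525, adjusted p = 0.000381). Mpeg1 and Cd80, the members with the largest KO rises apart from Cd86, were not called: Mpeg1 changed by -0.07 ± 0.05 (adjusted p = 0.304) and Cd80, at 9.36, 8.83 and 9.08 CPM, by 0.10 ± 0.12 (adjusted p = 0.584). The counts called were the same after the share of control expression was removed from the H9M KO libraries with ATRA, the group in which Kdm1a RNA stood at 7.51% of control.

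In MN1 knockouts ATRA lowered 2 of 7 (Cd14 and Lyz2), beside 10.4% of genes called lower, and raised 0, beside 8.42%. Lyz2 read 37.6, 38.6 and 37.6 CPM in MN1 KO with ATRA (-0.43 ± 0.06, adjusted p = 1.25e-06). Cd14 read 2.61, 2.09 and 1.93 CPM (-0.43 ± 0.15, adjusted p = 0.0403, and 0.0175 to 0.206 over 13 alternatives). The Cd14 call was lost with RLE size factors (0.0547), library totals alone (0.0699) and each model fitted alone (0.106). It was also lost without MN1 KO replicate 1 (0.206) or 3 (0.0555) or MN1 KO with ATRA replicate 2 (0.113) or 3 (0.197). Cd68 at 9.58, 11.9 and 11.7 CPM and Cd80 at 1.6, 1.16 and 1.22 CPM overlapped the MN1 KO libraries without ATRA. Lgals3 stood at 58.4, 58.3 and 61.6 CPM in MN1 KO with ATRA, all above the KO libraries without it, but the change of 0.16 ± 0.08 was not called (adjusted p = 0.153, and 0.018 to 0.531 over 13 alternatives). It was called with no filter on low counts (0.018). The ATRA change in knockouts differed between the models for Cd68, Lyz2 and Lgals3, with differences (MN1 minus H9M) of 0.38 ± 0.09, 0.27 ± 0.07 and 0.60 ± 0.10 (adjusted p = 0.00434, 0.0103 and 9.04e-05). These are 3 of 7 tested members called higher, beside 6.17% of genes, and 0 lower, beside 7.31%. For Lyz2 the difference was no longer called after the control share was removed (0.20, adjusted p = 0.073, and 0.000442 to 0.073 over 19 alternatives).

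The knockout and ATRA together were then set against the sum of the separate changes on the log2 scale, by the interaction term. In H9M the joint change was below the sum for 4 of 7 tested members and above it for 0, beside 2.79% and 2.25% of all genes. Lgals3 fell short by 0.77 (-0.77 ± 0.10, adjusted p = 4.54e-06), since ATRA raised it in controls and lowered it in knockouts. Lyz2 fell short by 0.64 (-0.64 ± 0.07, adjusted p = 7.75e-08) and Cd14 by 0.38 (-0.38 ± 0.09, adjusted p = 0.0106). Cd68 fell short by 0.33 (-0.33 ± 0.09, adjusted p = 0.028), a call lost in 10 of 20 alternatives (0.0185 to 0.096). Those 10 were the removal of the control share (0.096), no filter on low counts (0.0822), and leaving out replicate 2 or 3 of the H9M controls (0.0873 and 0.0643), controls with ATRA (0.0521 and 0.0837), KO (0.0624 and 0.0603) or KO with ATRA (0.0519 and 0.0737).

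In MN1 the joint change was below the sum for 2 of 7 and above it for 1, beside 1.68% and 1.09% of genes. Cd68 fell short by 0.77 (-0.77 ± 0.12, adjusted p = 0.000146) and Mpeg1 by 0.57 (-0.57 ± 0.14, adjusted p = 0.0143). For these genes ATRA and the knockout each raised the RNA alone, and adding ATRA to the knockout gave no called change. The Mpeg1 call was lost without MN1 control replicate 2 (0.0625) or 3 (0.07) or MN1 control with ATRA replicate 2 (0.0517), within a range of 0.00171 to 0.07 over 19 alternatives. Lyz2 went the other way, 0.56 above the sum (0.56 ± 0.10, adjusted p = 0.000561): ATRA lowered it by 0.99 in MN1 controls and by 0.43 in MN1 knockouts.

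**Figure D3:**
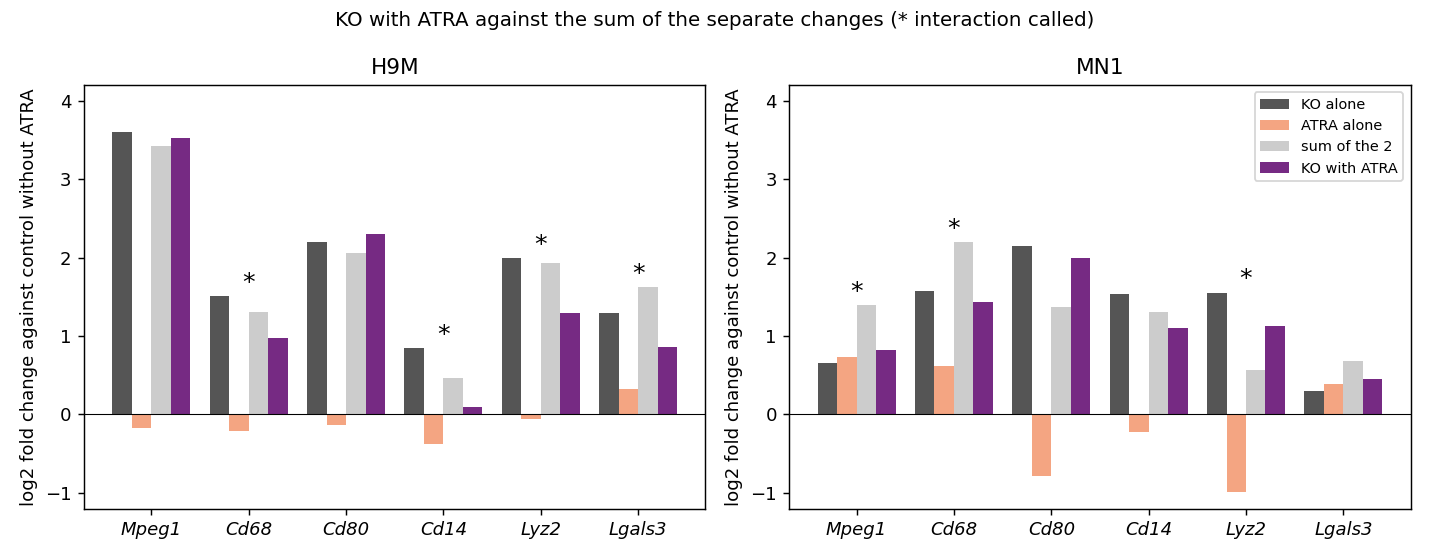
Log2 fold change against controls without ATRA for KO alone, ATRA alone, the sum of both and KO with ATRA, in H9M and MN1, for 6 members; a star marks a called interaction. In H9M the joint bar of Lgals3, Lyz2, Cd14 and Cd68 is shorter than the sum, and in MN1 that of Cd68 and Mpeg1 is shorter and that of Lyz2 taller.

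Knockouts with ATRA against untreated controls, which hold both changes, had 6 of 7 members called higher in H9M, beside 28.4% of genes called higher and 27.9% lower, with Cd14 not called. In MN1 6 of 7 were called higher, beside 30.8% and 29.8%. Knockouts without ATRA against controls with ATRA had 7 of 7 called higher in H9M, beside 28.6% of genes higher and 26.3% lower, and 4 of 7 in MN1, beside 28.7% and 27.5%. Both H9M counts include Cd86, admitted by the filter through the knockouts. The MN1 members not called there were Mpeg1 (-0.07 ± 0.09, adjusted p = 0.575), Lgals3 (-0.09 ± 0.08, adjusted p = 0.334) and Cd86. For Mpeg1 and Lgals3, MN1 controls given ATRA and MN1 knockouts without it thus held overlapping levels.

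The order of the 4 group means was not the same for all genes. In H9M, controls with ATRA were lowest for 6 of the 7 tested members and controls without ATRA for Lgals3, but neighbours at the bottom differed beyond the test only for Cd68, Cd14 and Lgals3. KO without ATRA was highest for 6 of the 7 and KO with ATRA for Cd80, where the top neighbours overlapped. In MN1, KO with ATRA was highest for Mpeg1 and Lgals3, whose 3 upper groups overlapped step by step. KO without ATRA was highest for Cd68, Cd80, Cd14 and Lyz2, and the 2 upper groups were told apart by the test for Cd14 and Lyz2. Before any treatment, MN1 controls lay below H9M controls for 6 of 7 tested members, beside 35.9% of genes called lower and 37.6% higher, from 1.68-fold for Lgals3 to 35.1-fold for Cd14. MN1 and H9M libraries differ in their name tag as well.

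Genes whose 8 group means ran most like a member's were ranked by Pearson's r on log2(CPM + 1) over the 8 groups, among 10129 genes, as a description of groups that share libraries. For Mpeg1 the closest were Cybb, the NADPH oxidase subunit of phagocytes (r = 0.9932), and Gbp5, an interferon-induced guanylate-binding protein (0.9927). Cybb went from 2.96 CPM in H9M controls to 247 in H9M KO and stayed at or below 0.236 CPM in every MN1 group. For Cd80 they were Gbp2 (0.992) and Gbp2b (0.9917), also guanylate-binding proteins. For Cd86 they were Apba1 (0.9987) and Olfm1 (0.9936), followed by Fcgr1, the high-affinity IgG receptor (0.9905). Fcgr1 went from 0.241 to 5.35 CPM in H9M. Lyz2 ran most like S100a11 (0.9989), a calcium-binding protein, Cd68 like Zfp429 (0.9978), Cd14 like Hsd11b1 (0.9979), which activates glucocorticoids, and Lgals3 like Atp6v1e1 (0.9836), a subunit of the proton pump. Mertk, at 0 or a few counts, was not read in this way.

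Other macrophage genes were taken from lists by function, and several of their genes, such as Siglec1 and Trem2, were near 0 in controls, so that the filter admitted them through the knockouts. The lists were drawn up with earlier results of these data known. Over all genes, 26.1% were called higher and 25.4% lower in H9M KO, and 28.7% and 26.3% in MN1 KO. These shares stand beside every count of list genes in KO below. Among the other surface receptors, 10 of 11 tested genes were called higher and 0 lower in the KO of H9M and again in MN1. The median log2 fold change was 3.08 in H9M and 1.56 in MN1, against 0.00 and 0.01 over all tested genes. Csf1r, the receptor for macrophage colony-stimulating factor, rose from 1.21 ± 0.12 to 46.3 ± 1.3 CPM in H9M (SD, n = 3) and stood at 0.139 ± 0.066 and 0.441 ± 0.022 in MN1. Siglec1, a sialic acid receptor of macrophages, went from 2 counts over 3 control libraries to 14.2 ± 1.0 CPM in H9M and from 2 counts to 16.8 ± 1.4 in MN1. Adgre1, an adhesion receptor used as a macrophage marker, rose from 12.2 ± 1.5 to 103 ± 5.5 CPM in H9M and from 52.7 ± 4.3 to 328 ± 7.7 in MN1. Of the 14 receptors on the list, Marco was at 0 in all 24 libraries, and Mrc1 and Cd36 had too few counts to be tested.

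Of the 12 macrophage transcription factors, 7 were called higher and 1 lower in H9M KO, and 6 and 1 in MN1 KO, with medians of 0.33 and 0.42. The shares over all genes were 26.1% and 25.4% in H9M KO and 28.7% and 26.3% in MN1 KO. Irf8 had 8.06 ± 0.62 CPM in H9M controls and 395 ± 5.5 in KO, and 8.95 ± 0.15 and 24.6 ± 0.54 in MN1. Its log2 fold changes were 5.63 ± 0.06 in H9M and 1.46 ± 0.06 in MN1. Zeb2 rose in H9M from 54.8 ± 2.2 to 121 ± 1.5 CPM, with 62.7 ± 1.1 and 61.4 ± 2.2 in MN1. Bhlhe40 fell in H9M from 67.2 ± 4.6 to 25.6 ± 3.4 CPM.

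Around Cd80 and Cd86, 7 of 10 tested costimulation genes were called higher in H9M KO and 9 of 10 in MN1 KO, with 0 lower. Over all genes, 26.1% and 28.7% were called higher there, and 25.4% and 26.3% lower. Tnfsf9, the ligand of 4-1BB, went from 0.325 ± 0.061 to 9.40 ± 0.68 CPM in H9M and from 1.16 ± 0.31 to 5.68 ± 0.41 in MN1. Cd28, the T cell receptor of both ligands, rose from 13.2 ± 2.2 to 46.8 ± 4.1 CPM in H9M. Around Cd14, 8 of 12 lipopolysaccharide sensing genes were called higher and 1 lower in H9M, and 8 and 2 in MN1. Lbp, the lipopolysaccharide binding protein, rose from 134 ± 1.0 to 242 ± 7.8 CPM in H9M and from 13.1 ± 0.28 to 36.9 ± 0.64 in MN1.

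Around Cd68, 10 of 10 tested lysosomal genes were called higher in H9M KO and 8 of 10 in MN1, with 0 lower and medians of only 0.37 and 0.40. All genes were called higher at 26.1% and 28.7%, and lower at 25.4% and 26.3%. Ctss, cathepsin S, went from 0.599 ± 0.22 to 78.9 ± 3.8 CPM in H9M and from 3 counts over 3 libraries to 2.26 ± 0.57 CPM in MN1. Ctsd, cathepsin D, rose from 347 ± 4.5 to 398 ± 5.5 CPM in H9M and from 199 ± 5.2 to 308 ± 9.5 in MN1. Around Lgals3, 3 of 5 tested galectin genes were called higher in each model, and Lgals9 rose in H9M (173 ± 7.2 to 210 ± 0.92 CPM) and fell in MN1 (503 ± 9.2 to 391 ± 12).

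Around Mertk, 9 of 11 tested genes of apoptotic cell uptake were called higher and 1 lower in H9M KO, and 7 and 1 in MN1. The shares of all genes were 26.1% and 25.4% in H9M KO, and 28.7% and 26.3% in MN1 KO. Axl, a receptor of the same family, went from 0.217 ± 0.10 to 2.35 ± 0.19 CPM in H9M and from 0.0450 ± 0.017 to 2.30 ± 0.35 in MN1. Stab1, a scavenger receptor for phosphatidylserine, rose from 1.08 ± 0.21 to 480 ± 25 CPM in MN1 and from 1.29 ± 0.20 to 10.9 ± 0.79 in H9M. Timd4 was at 0 in all libraries. Around Lyz2, the 3 tested genes of secreted antibacterial proteins were called higher in both knockouts. Slpi, a leukocyte protease inhibitor, rose from 95.7 ± 1.2 to 197 ± 1.7 CPM in H9M and from 15.1 ± 1.2 to 65.9 ± 3.0 in MN1.

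**Figure D4:**
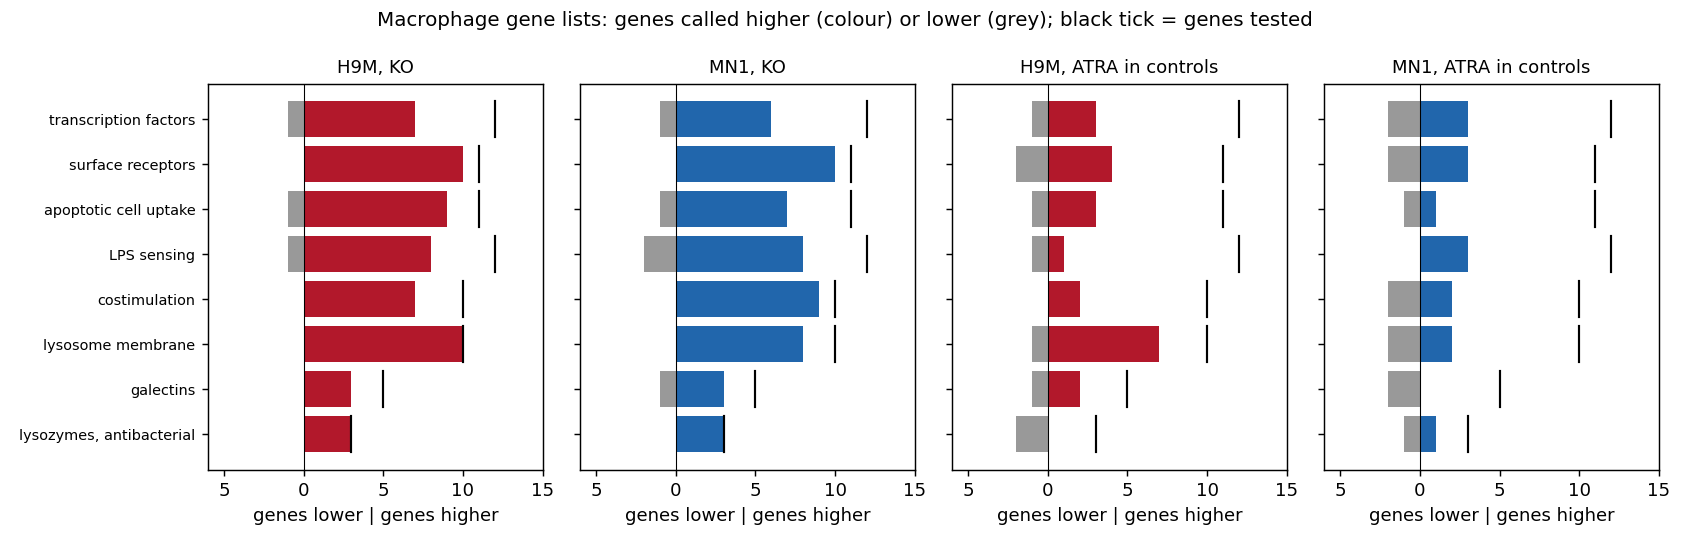
Genes called higher (coloured bars) and lower (grey bars) per functional list for KO against control without ATRA and for ATRA in controls, with a black tick at the number of genes tested. Surface receptors reach 10 of 11 in both KO panels, where 26.1% (H9M) and 28.7% (MN1) of all genes were called higher. ATRA alone gives calls in both directions.

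The label was checked against markers of other cells. Of 11 resident macrophage markers, Clec4f, Cd5l and Folr2 were at 0 in every library and C1qa, C1qb, C1qc and Vsig4 had too few counts to be tested. The summed level of the 11 was 45.3 to 46.9 CPM in H9M controls and 49.4 to 52.3 in KO, of which Vcam1 made up 44.9 ± 0.70 and 28.0 ± 1.5. Trem2, a lipid receptor of macrophages, went from 3 counts over 3 H9M control libraries to 21.0 ± 1.5 CPM in KO. Mertk, the C1q genes and Vsig4, which mark resident macrophages, were thus at or near 0 while the other 7 members were measured in at least 1 group.

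Neutrophil markers moved in the same knockouts. Of 10 tested, 9 were called higher in H9M KO and 8 in MN1 KO, and none of the 12 was at 0 throughout. For this and the other cell types, the shares over all genes were 26.1% higher and 25.4% lower in H9M KO. In MN1 KO they were 28.7% and 26.3%. Their summed level was 242 to 253 CPM in H9M controls, 1980 to 2283 in KO and 1123 to 1188 in KO with ATRA. In MN1 it was 69.9 to 80.7, 576 to 614 and 393 to 422. Mmp8, neutrophil collagenase, gave most of the sum in H9M KO without ATRA, with 1548 ± 144 CPM, but only 1.71 ± 0.078 CPM of the sum in H9M controls. Lyz2, Cd14 and Lgals3 are also expressed by neutrophils and monocytes, and the part of these cells in the members' changes was not tested. Mast cell and basophil markers rose in MN1 KO as well (4 of 4 tested, a sum of 1042 to 1110 CPM in controls and 1945 to 1982 in KO), and in H9M their sum was 17.3 to 18.7 and 9.60 to 10.1 CPM. Of 5 tested megakaryocyte markers, 4 were called higher and 1 lower in MN1 KO, with a sum of 104 to 107 CPM in controls and 142 to 149 in KO. In H9M KO 1 of the 5 was called higher and 0 lower, with sums of 2.16 to 2.83 and 5.79 to 7.86 CPM. The part of these cells was not tested either.

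H3K4me2 at the members' promoters was compared in lineage-negative marrow between 1 library of GFI1-WT and 1 of GFI1-KD mice, cells other than those of the RNA data. Reads were counted within 1000 bases either side of the start, and scaled to the reads kept in each library. With 1 library a genotype there is no test, and intervals cover counting error only. GFI1-KD was more than 1.5-fold higher at 7 of the 8 promoters and lower at 0, where 13.4% and 6.6% of 15171 promoters with at least 20 reads passed that fold. The median promoter ratio over all of these was 0.988, with 90% of promoters between 0.586 and 2.11.

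The largest ratios were at Cd68 and Mpeg1. Cd68 had 57 reads in GFI1-WT and 146 in GFI1-KD, a ratio of 2.40 (95% interval 1.76 to 3.32), and Mpeg1 had 82 and 208, a ratio of 2.38 (1.83 to 3.11). Mertk had 105 and 225 reads, a ratio of 2.01 (1.59 to 2.56). Its promoter thus carried the mark in both libraries, at the 60.6th percentile of promoters in GFI1-WT, while its RNA was near 0 in the transformed cells. Cd86 had 105 and 211 reads (1.89, interval 1.48 to 2.41), and Cd14 167 and 328 (1.84, interval 1.52 to 2.23). For these 2 genes the start was taken as the annotated gene end with more reads. Lyz2 had 122 and 208 (1.6, interval 1.27 to 2.02) and Cd80 42 and 74 (1.65, interval 1.12 to 2.47). Lgals3 had 131 and 184 reads, a ratio of 1.32 (1.05 to 1.66), and was the one not past the fold. The order of these ratios is not settled, since the intervals of neighbours overlap.

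**Figure D5:**
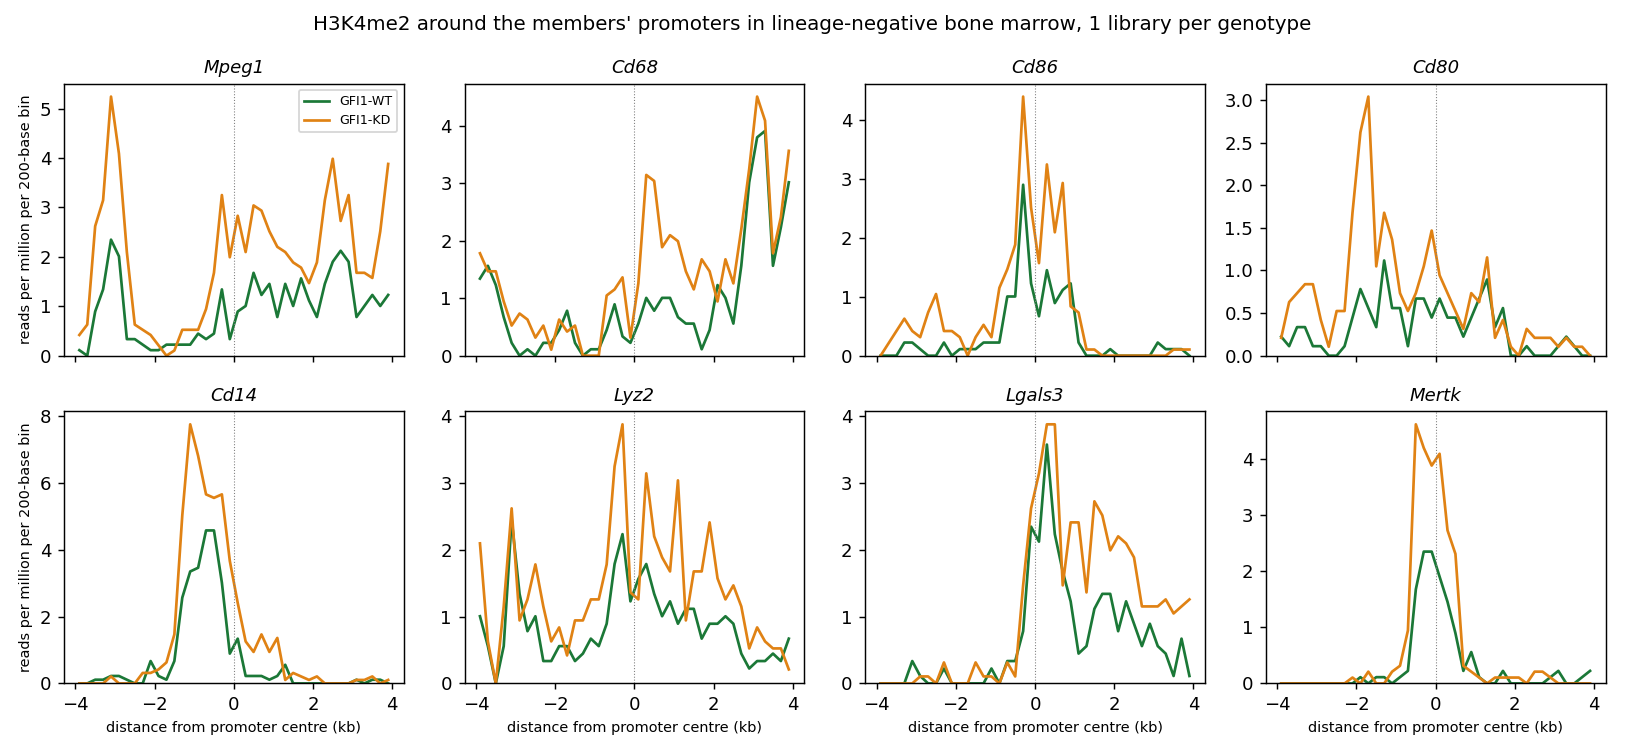
H3K4me2 reads in each 200-base bin, scaled to the reads kept in the library, from 4 kb before to 4 kb after each promoter centre (dotted line), GFI1-WT in green and GFI1-KD in orange, 1 library each; Cd86 and Cd14 are drawn in genome direction and the others along the gene. GFI1-KD lies above GFI1-WT over most marked bins, as at Mpeg1 with 208 against 82 reads within 1 kb, and at Cd80 the highest bins lie upstream of the centre.

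The pattern was not common to all functions. Beside every count here stand the shares over all promoters, 13.4% past the fold higher and 6.6% lower. Among the other surface receptors, 6 of 7 promoters with enough reads were more than 1.5-fold higher in GFI1-KD, with a median ratio of 2.37, and among neutrophil markers 7 of 11 were higher and 3 lower. Resident macrophage markers had 3 of 5 higher and 0 lower (median 2.28), and secreted antibacterial proteins 4 of 6 higher and 1 lower (median 1.98). Lipopolysaccharide sensing genes had 2 of 8 higher and a median of 0.914. Lysosomal genes had 1 of 8, near the share over all promoters, and a median of 0.972. Galectins had 0 of 5 higher and 2 lower. Erythroid markers had 0 of 4 higher and 3 lower, with a median of 0.25. In marrow, the share of a cell type and the level of the mark in each cell cannot be told apart, and with 1 library a genotype neither can genotype and library.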

How the data were processed

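The submitters' processing notes name STAR 2.5.3 and mm10 for RNA, and CASAVA 1.8.2, BWA and bedtools 2.27.0 with GRCm38 for ChIP. The deposited RNA table holds whole-number counts per gene and library; how reads were assigned to genes, and on which strand, is not stated, which leaves genes that overlap or have near copies uncertain. For ChIP the deposited tables list aligned reads with a score, used as mapping quality (at least 10); 8949072 GFI1-WT and 9538627 GFI1-KD reads were kept. An input library was not used here.

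Symbols were matched by Ensembl ID (48349 matched, 446 not). edgeR 4.0.16 in R 4.3.3 filtered the counts (filterByExpr), scaled them (TMM) and fitted 8 groups with glmQLFit (16 residual degrees of freedom, common coefficient of variation 4.01%). glmQLFTest gave 18 two-sided comparisons, Benjamini-Hochberg adjusted within each over all 14663 genes. The model was tested on simulated data: 81.5% of 2-fold changes were recovered for H9M KO against control over 14130 genes. Replicates differed by more than sampling noise in every group.

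Members and lists were chosen with earlier results of these data known. Named genes are Kdm1a, the members, up to 4 genes per list with the smallest adjusted p, list genes at 0 or untested, and up to 3 genes most like each member. Stated floors are 3 counts over a group, and 95% intervals are exact. Deviations of same-numbered replicates correlated from -0.141 to 0.237 in H9M (median 0.02) and from -0.0861 to 0.161 in MN1 (median -0.01). Of 12 libraries in each model, 6 in H9M and 7 in MN1 matched best with their own number. Whether replicates are paired is not settled by this. No pairing was assumed, and a replicate block was fitted as an alternative. Alternatives were RLE scaling, library totals, other filters, DESeq2 1.42.0, a replicate block, each model alone, removal of the control share, leaving out each library, and for ChIP other windows, mapping quality of 30 and scaling to the median promoter.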

Additional observations from a re-analysis of the deposited data

Results flagged for a closer look

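Differences between 2 groups in the size or direction of a change, each tested as an interaction in the edgeR fit, are listed here as log2 differences with no explanation weighed. For the knockout by ATRA interaction in H9M the values were -0.33 (Cd68), -0.38 (Cd14), -0.64 (Lyz2) and -0.77 (Lgals3), so each of these genes rose less with the knockout when ATRA was present. In MN1 they were -0.57 (Mpeg1), -0.77 (Cd68) and 0.56 (Lyz2), so Lyz2 there rose more with the knockout when ATRA was present.

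Between the models, the KO change in MN1 minus that in H9M was -2.93 for Mpeg1, -0.44 for Lyz2, -1.0 for Lgals3 and 0.69 for Cd14. The ATRA change in controls differed by 0.90 for Mpeg1, 0.83 for Cd68 and -0.93 for Lyz2. The ATRA change in knockouts differed by 0.38 for Cd68, 0.27 for Lyz2 and 0.60 for Lgals3. Each comparison between models also compares libraries with 2 different name tags, whose meaning is not given. With 3 libraries a group, a search for single outlying libraries was not made.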

How the results depend on the processing

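Counts of all genes called stayed within 1.5 times of those reported in 265 of 265 recomputations, and counts of members called in 514 of 530. Member log2 fold changes kept direction and call in 1621 of 1658, lost the call in 26 and gained it in 3. With the replicate block, the 36 counts of members called and the 18 counts of genes called were all within that range, 7 members being called higher in H9M KO as without it.

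Members lower with ATRA in H9M controls numbered 1 under DESeq2 and 1 with no filter on low counts, and 1 to 3 when a library was left out. Members lower with ATRA in MN1 KO numbered 1 with RLE factors, 1 with library totals, 1 with each model fitted alone and 1 to 2 when a library was left out; members higher there numbered 1 with no filter. Members below the sum in MN1 numbered 1 to 2 when a library was left out. These follow from the Cd68, Cd14, Mpeg1 and Lgals3 calls named with their results.

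The sign turned only for changes that were not called. Mpeg1 with ATRA in H9M KO was 0.04 after the control share was removed. Leaving out a library gave -0.38 to 0.03 for Cd14 with ATRA in MN1 controls, and for differences between the models -0.28 to 0.42 (Cd80, KO), -0.04 to 0.16 (Lgals3, ATRA in controls) and -0.01 to 0.40 (Cd14, ATRA in controls). The Cd14 promoter ratio was 2.3 within 500 bases. Depth limits Cd86 outside H9M knockouts and Mertk throughout.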
